A study of Mus musculus with 6 samples.

Results

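The complement and coagulation genes are 51 protein-coding genes for clotting factors, their inhibitors, the fibrinolytic enzymes, the complement components, and the receptors of the complement fragments. They were chosen by gene symbol in the deposited table of normalized counts, and all 51 were found among the 55536 genes counted. For the description they were divided by textbook knowledge of where each is made in liver and tumor tissue, into 31 hepatocyte-made genes, 11 genes made by several cell types, 5 myeloid genes (C1qa, C1qb, C1qc, C3ar1 and C5ar1) and 4 vascular genes (F3, Thbd, Plat and Vwf).

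Bulk RNA-seq was done on 6 tumors, 3 from untreated control mice and 3 from mice given GOx-DOX-LGP, a lipid, gelatin and protamine nanogel loaded with glucose oxidase (GOx) and doxorubicin (DOX). All mice were male C3H mice of 6 to 8 weeks, and every tumor grew from HCA-1, a single murine HCC line, injected under the capsule of the liver. The methods of the study name the substrain C3H/HeNCrNarl. Intravenous dosing was on days 18, 19 and 20, whereas the labels place the transcriptome on day 17 after 3 h of circulation, and the day of harvest is therefore uncertain. For tumor RNA measured by RT-qPCR after the same dosing, the supplement of the study places the harvest on the day after the last dose. The tumors lay inside the liver, and a sample could hold host hepatocytes, Kupffer cells and vessels besides tumor cells. The labels number the libraries 5, 6 and 7 in the control group and 1, 2 and 5 in the treated group, with 15529940 to 18401178 counts each. The p-values below measure the spread between these libraries, which may be technical in part, since the labels name separate samples and nothing more.

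Most clotting factors and complement proteins circulate as inactive precursors that hepatocytes secrete into plasma. Clotting starts when tissue factor meets factor VII, runs through a chain of serine proteases to thrombin, and ends with fibrin, which plasmin dissolves. Complement starts from C1q, from mannose-binding lectins or by itself, converges on C3 and C5, and ends in a membrane pore built from C6 to C9. C1q is an exception among these proteins, since macrophages make most of it, and thrombomodulin, tissue plasminogen activator and von Willebrand factor are products of endothelium.

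The 3 fibrinogen genes, which encode the chains of the clottable plasma protein, lie side by side on chromosome 3 in the GRCm38 annotation of GENCODE M21, with Fgg at chr3:83007724-83015049, Fga at chr3:83026076-83033627 and Fgb at chr3:83040141-83049863. Their promoters are shown because these genes gave the most counts of the hepatocyte-made genes in controls 6 and 7, and that of C1qb, a macrophage gene at chr4:136880129-136886187, is shown beside them because it went the other way. Each is the RefSeq sequence (GRCm38.p6) before the start of the gene, 5′ to 3′ on the strand of the gene. The Fga sequence (chr3:83025903-83026075, plus strand) stops where the GENCODE gene begins, and the others are the 250 bases before the RefSeq start, namely chr3:83049864-83050113 (minus strand) for Fgb, chr3:83007474-83007723 (plus strand) for Fgg and chr4:136886201-136886450 (minus strand) for C1qb. Capitals mark every match to 1 of 5 motifs of liver and acute phase factors in the bases shown. Fga holds a further HNF1 match in the rest of its window, which is not printed.
Fga: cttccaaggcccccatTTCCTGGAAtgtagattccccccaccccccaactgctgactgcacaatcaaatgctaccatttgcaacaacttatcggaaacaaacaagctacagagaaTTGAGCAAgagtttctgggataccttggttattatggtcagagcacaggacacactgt
Fgb: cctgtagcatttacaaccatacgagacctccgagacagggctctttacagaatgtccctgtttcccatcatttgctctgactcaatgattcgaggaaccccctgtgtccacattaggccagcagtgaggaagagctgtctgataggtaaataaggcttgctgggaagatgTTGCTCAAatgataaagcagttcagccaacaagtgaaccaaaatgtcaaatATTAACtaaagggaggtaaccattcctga
Fgg: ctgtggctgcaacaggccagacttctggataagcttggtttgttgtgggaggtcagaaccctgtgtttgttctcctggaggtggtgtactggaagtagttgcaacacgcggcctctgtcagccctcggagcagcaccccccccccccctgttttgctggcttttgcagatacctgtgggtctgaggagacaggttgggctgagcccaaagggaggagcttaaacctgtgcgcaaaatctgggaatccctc
C1qb: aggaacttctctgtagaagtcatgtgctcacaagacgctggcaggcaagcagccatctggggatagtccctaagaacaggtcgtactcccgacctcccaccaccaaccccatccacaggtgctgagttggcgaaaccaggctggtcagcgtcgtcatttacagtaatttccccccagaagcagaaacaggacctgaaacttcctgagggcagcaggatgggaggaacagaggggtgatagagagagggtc

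The motifs were searched on both strands of the 250 bases before each RefSeq start, and 37 of the 51 members matched the promoter table, with 40 promoters. The C/EBP motif TTNNGCAA was in 6 of 27 promoters of hepatocyte-made genes (22.2%) and in 9.56% of all 32851 mouse promoters. The HNF1 motif GTTAAT was in 7 of the 27 (25.9%) and in 6.43% of all promoters. Those 7 were the promoters of Fga, Fgb, Hc, C4bp, C8a, C8b and F13b. The HNF4A motif CAAAGTCCA was in 0 of the 27 and in 0.384% of all, the STAT motif TTCCNGGAA in 1 of the 27 (Fga) and in 0.913% of all, and the NF-kB motif, GGG and TTTCC with 2 bases of any kind between them, in 0 of the 27 and in 1.41% of all. None of the 4 promoters of myeloid genes held the C/EBP or the HNF1 motif, and C3ar1 held the NF-kB motif. In none of the 40 did matches of different motifs overlap. A match describes the letters only, binding was not measured, and a promoter without a match lacks only these letters in this window.

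Before any comparison, control 5 stood apart from the other controls. Its log2 levels over all genes tested correlated with those of the treated tumors at 0.966 to 0.975, and with controls 6 and 7 at only 0.73 and 0.659, while controls 6 and 7 correlated at 0.969 with each other. These are descriptions over genes, which are not independent replicates. The 12 hepatocyte markers, none of which is a member, had a mean log2 level of 4.05 in control 5, 11.87 in control 6 and 12.65 in control 7, against 6.57, 5.10 and 5.74 in the treated tumors 1, 2 and 5. Albumin (Alb), the main plasma protein of hepatocytes, was at 353, 73800 and 128200 CPM in the controls and at 1893, 733 and 1061 CPM in the treated tumors. CPM are counts scaled to library size with the TMM factors of edgeR, and log2 levels are log2 CPM with a prior count of 2. All 12 markers were detected in all 6 libraries, and all were higher in controls 6 and 7 than in the treated tumors. A smaller number of hepatocytes and less RNA per hepatocyte cannot be told apart in bulk tissue. The library labelled control 5 was kept in its labelled group, and its label could not be checked, since the design targets no gene. Fold changes are from all 6 libraries unless stated, and for some genes and classes they are also given without control 5. Leaving out control 5 changed the size or call of other genes too. The part of hepatocyte content in these changes was not tested.

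Members of the set took 4.536% and 4.309% of all counts in controls 6 and 7, but 0.2126% in control 5. In the treated tumors the share was 0.3681%, 0.6236% and 0.3486%. Wilson 95% intervals, which cover counting error only, were 4.526% to 4.546% in control 6 and 0.2105% to 0.2147% in control 5. Most of this span came from the 31 hepatocyte-made genes, at 0.05417%, 3.607% and 3.513% in the controls and 0.1703%, 0.0878% and 0.107% in the treated tumors. The myeloid genes were lowest in controls 6 and 7. They took 0.07219%, 0.0342% and 0.01501% in the controls and 0.07%, 0.15% and 0.1053% in the treated tumors. Control 5 was thus slightly above GOx-DOX-LGP 1, and the groups overlapped.

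**Figure D1:**
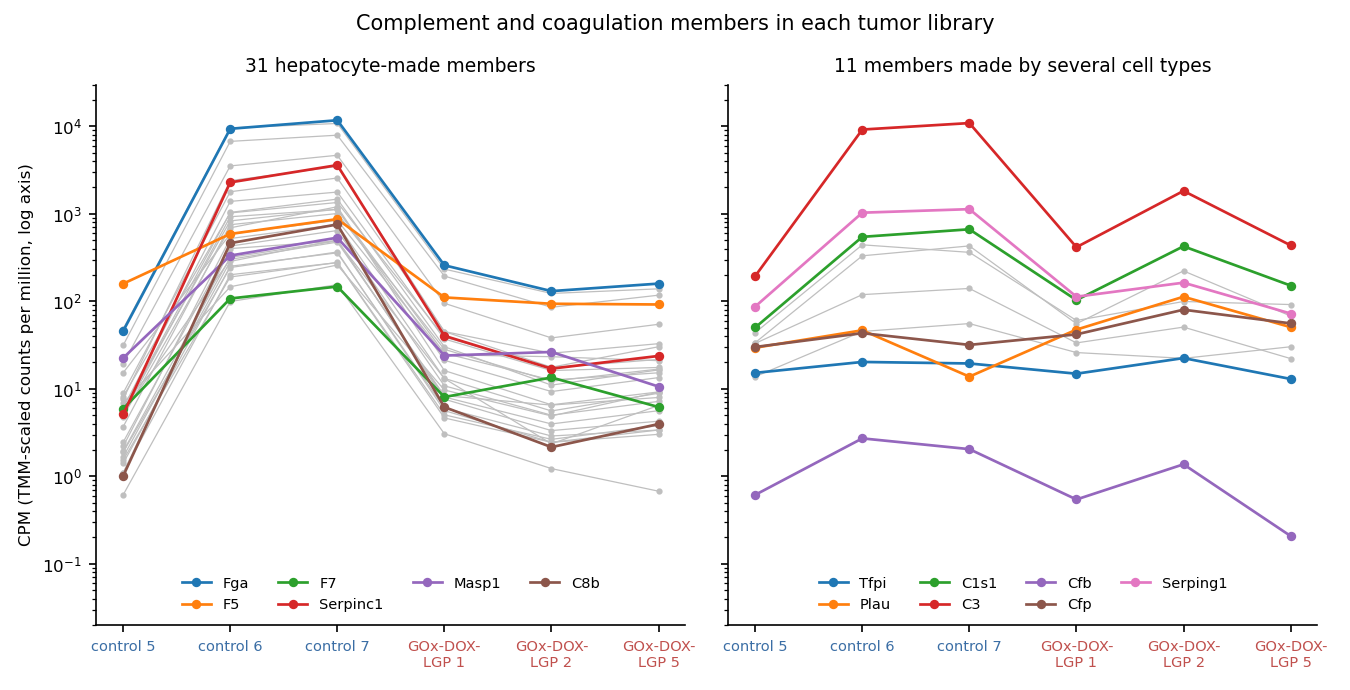
Level of each hepatocyte-made member (left) and each member made by several cell types (right) in the 6 libraries, in TMM-scaled CPM on a log axis; each line joins the values of 1 gene, and the genes named in the legend are colored. All 31 hepatocyte-made genes were higher in controls 6 and 7 than in the other 4 libraries, F5 fell less than the rest, and C3 and C1s1 were highest of the treated tumors in GOx-DOX-LGP 2.

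Across all 15374 genes tested, the comparison of treated with control tumors gave 0 genes with an adjusted p under 0.05 (edgeR quasi-likelihood test, Benjamini-Hochberg), or 0% of genes, and hence 0 members. The smallest adjusted p was 0.247. Without adjustment, 34 members had a lower level with p under 0.05 and 2 a higher one, where 14.6% of all genes were lower and 2.87% higher. DESeq2 on the same counts called 33 members lower and 1 higher at an adjusted p under 0.05, beside 9.85% and 0.684% of all genes. Without control 5 the edgeR test called 38 members lower and 7 higher, where 25.5% of all genes were lower and 22.2% higher. Groups did not overlap for 2 members that were lower (F5 and Vwf) and 3 that were higher (C1qb, C5ar1 and Plau) in treated tumors, beside 8.31% and 8.87% of all genes. This count of 5 was 3 with scaling to housekeeping genes and 49 without control 5. Separation is easier with fewer controls, and the share of all genes was not counted there, so nothing is read from the 49. The median log2 fold change of the 51 members was -4.93, and that of all genes was 0.02.

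**Figure D2:**
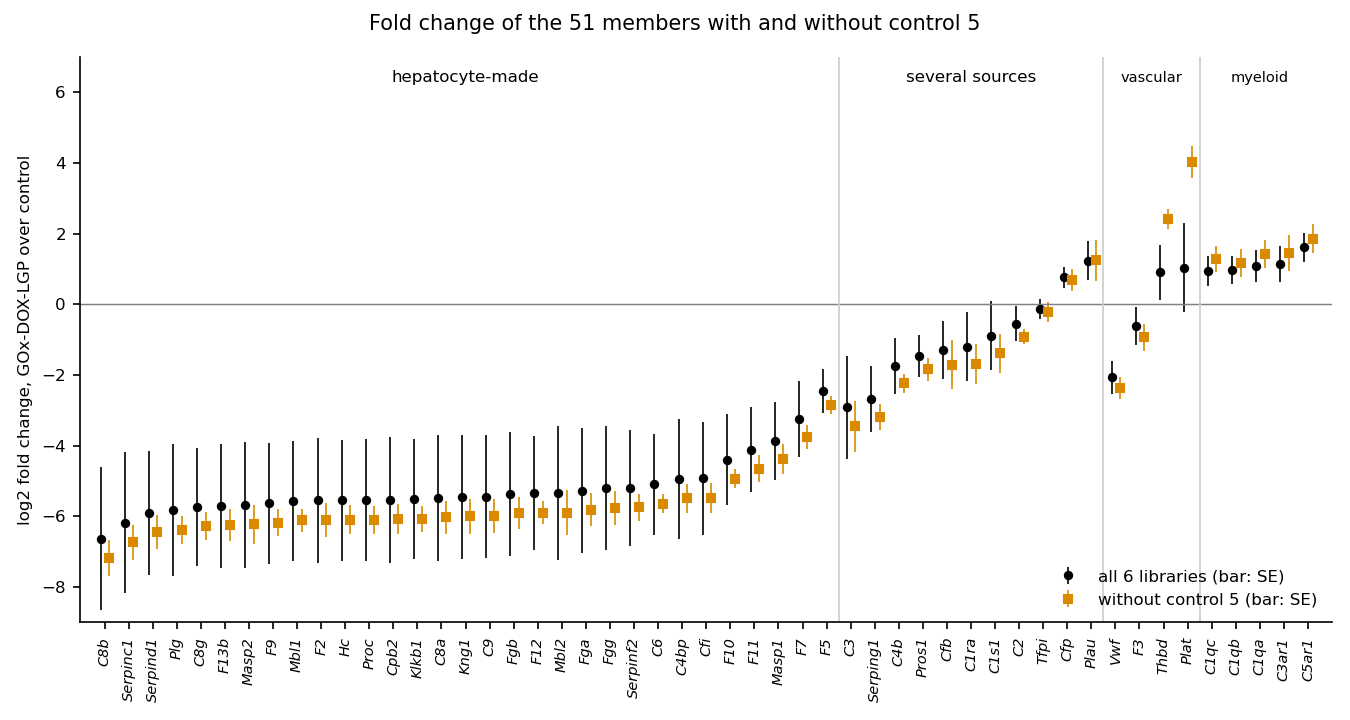
Log2 fold change of GOx-DOX-LGP over control tumors for the 51 members, from edgeR, with all 6 libraries (circles) and without control 5 (squares); bars are standard errors. Hepatocyte-made genes lay between -6.63 and -2.45 with all libraries, the myeloid genes lay above 0, and leaving out control 5 shortened most bars and moved Plat from 1.04 to 4.02 and Thbd from 0.91 to 2.42.

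The hepatocyte-made genes were lower as a group. All 31 had a negative log2 fold change, with a median of -5.45. All 31 had an unadjusted p under 0.05 in edgeR, where 14.6% of all genes were lower. Their adjusted p lay between 0.247 and 0.249. DESeq2 called all 31 lower, beside 9.85% of all genes. The edgeR test without control 5 also called all 31 lower, beside 25.5% of all genes, and their median was then -6.00. In every one of the 31, controls 6 and 7 were above the other 4 libraries, and the share of all genes with this order was not counted. In 28 of them control 5 was below all treated tumors, where 26% of all genes had control 5 below, 45.6% within and 28.4% above the treated range. The 12 hepatocyte markers had a median log2 fold change of -5.62 (-6.17 without control 5), and control 5 was below the treated tumors in all 12.

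Fibrinogen and thrombin form the last steps of clotting. Fga (alpha chain) was at 45.8, 9360 and 11710 CPM in controls 5, 6 and 7 and at 258, 131 and 159 CPM in treated tumors 1, 2 and 5. The treated values thus lay between control 5 and the other controls, and the groups overlapped. Its log2 fold change was -5.27 (SE 1.78, adjusted p = 0.247 in edgeR) with all libraries and -5.82 (SE 0.47, adjusted p = 0.000101 in edgeR) without control 5. Fgb (beta chain) was at 48.4, 9560 and 10760 CPM in the controls and at 233, 123 and 139 CPM in the treated tumors. Fgg (gamma chain) was at 31.4, 6718 and 7906 CPM against 194, 85.4 and 117 CPM. F2 (prothrombin) was at 8.95, 1786 and 2562 CPM in the controls and at 45.1, 17.6 and 30.2 CPM in the treated tumors. Without control 5 the log2 fold changes of Fgb and F2 were -5.91 and -6.10, against -5.36 and -5.55 with all libraries. These 4 genes followed the same order of libraries, with control 5 lowest, then treated tumors 2, 5 and 1, then controls 6 and 7.

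The fibrinogen genes also kept nearly the same proportions in each library. Per kilobase of exon, the log2 ratio of Fga to Fgg lay between -0.12 and 0.09 over the 6 libraries, that of Fga to Fgb between 0.26 and 0.54, and that of Fgg to Fgb between 0.24 and 0.62. Over the same libraries the level of Fga itself spanned 45.8 to 11710 CPM. The 3 chains assemble into 1 protein in equal numbers.

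F5, the cofactor that speeds the cleavage of prothrombin, fell least of the hepatocyte-made genes. It was at 159, 588 and 869 CPM in the controls and at 111, 93.7 and 91.9 CPM in the treated tumors, and here all 3 controls were above all 3 treated tumors. Its log2 fold change was -2.45 (SE 0.63, unadjusted p = 0.00767, adjusted p = 0.247 in edgeR), and DESeq2 gave an adjusted p of 0.00409. Without control 5 it was -2.85 (adjusted p = 0.000155 in edgeR). Exact permutation of 3 against 3 libraries cannot give a p below 0.1, so the lack of overlap is the most such a test can show. The other genes of the common pathway, F10 and F13b, had log2 fold changes of -4.39 and -5.70.

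Among the factors that start clotting, F7 (factor VII) was at 5.92, 108 and 147 CPM in the controls and at 8.06, 13.5 and 6.19 CPM in the treated tumors, a log2 fold change of -3.23 (adjusted p = 0.247 in edgeR; -3.75 and 0.000172 without control 5). F12 (factor XII), which starts the contact pathway, was at 1.54, 190 and 278 CPM against 5.042, 2.645 and 3.798 CPM. In F12 the treated values lay just above control 5 and far below controls 6 and 7. F9, F11, Klkb1 (prekallikrein) and Kng1 (kininogen) had log2 fold changes between -5.63 and -4.12. Klkb1 shares 42.7% of its 50-base stretches with Gm45753, which had at most 3 counts in a library, and Kng1 shares 17.2% with its copy Kng2.

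Inhibitors and fibrinolytic genes of hepatocytes went the same way. Serpinc1 (antithrombin), the main inhibitor of thrombin, was at 5.09, 2284 and 3596 CPM in the controls and at 40.3, 17.0 and 23.7 CPM in the treated tumors, with a log2 fold change of -6.18 (SE 1.99, adjusted p = 0.247 in edgeR; -6.73 and 7.7e-05 without control 5). Plg (plasminogen), the precursor of plasmin, was at 7.63, 2390 and 3479 CPM against 45.1, 25.5 and 32.8 CPM. Serpind1 (heparin cofactor II), Proc (protein C), Serpinf2 (the inhibitor of plasmin) and Cpb2 (a carboxypeptidase that slows fibrinolysis) had log2 fold changes between -5.89 and -5.20. The per-kilobase log2 ratio of F2 to Serpinc1 was 1.71, 0.54 and 0.41 in the controls and 1.06, 0.95 and 1.25 in the treated tumors. Of the 50-base stretches of Serpinc1, 33.6% also occur elsewhere, among them in Zbtb37, which overlaps it on the other strand, and Plg shares 10.2% with Slc22a3, likewise on the other strand.

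In the lectin pathway, Mbl2, a mannose-binding lectin, was at 1.10, 400.2 and 488 CPM in the controls and at 13.1, 2.35 and 6.45 CPM in the treated tumors. Its log2 fold change of -5.34 had the highest adjusted p of the hepatocyte-made genes, 0.249 in edgeR, and its SD among treated tumors, 1.22 on the log2 scale, was the largest of the 51 members. Mbl1, Masp1 and Masp2, the second lectin and the proteases that the lectins carry, had log2 fold changes of -5.56, -3.87 and -5.67. Masp1 was at 22.5 CPM in control 5, inside the treated range of 10.6 to 26.4 CPM. Masp2 was under 4 CPM in control 5 and in the treated tumors, and 52.5% of its stretches are also in the opposite gene Tardbp.

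The terminal complement components, which build the membrane pore, held the largest fall. C8b (a chain of C8) was at 1.01, 462 and 755 CPM in the controls and at 6.18, 2.16 and 3.95 CPM in the treated tumors. This was a log2 fold change of -6.63 (SE 2.03, adjusted p = 0.247 in edgeR; -7.18 and 6.67e-05 without control 5). Hc, which encodes C5, was at 5.13, 925 and 1121 CPM against 21.2, 9.31 and 13.4 CPM, and C9, which polymerizes in the pore, at 5.53, 1037 and 1470 CPM against 30.3, 11.02 and 16.4 CPM. Both had the same order of libraries as fibrinogen. C6, C8a and C8g had log2 fold changes between -5.73 and -5.10. Unlike fibrinogen, the chains of C8 did not keep their proportions, since the per-kilobase log2 ratio of C8a to C8b was 2.07, 1.07 and 0.71 in the controls and 2.07, 2.39 and 1.63 in the treated tumors. The smallest C8b count was 23, in control 5, so counting error is larger there. Of the complement regulators, C4bp (which breaks down the C3 convertase with factor I) and Cfi (factor I) were lower by log2 fold changes of -4.94 and -4.93.

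**Figure D3:**
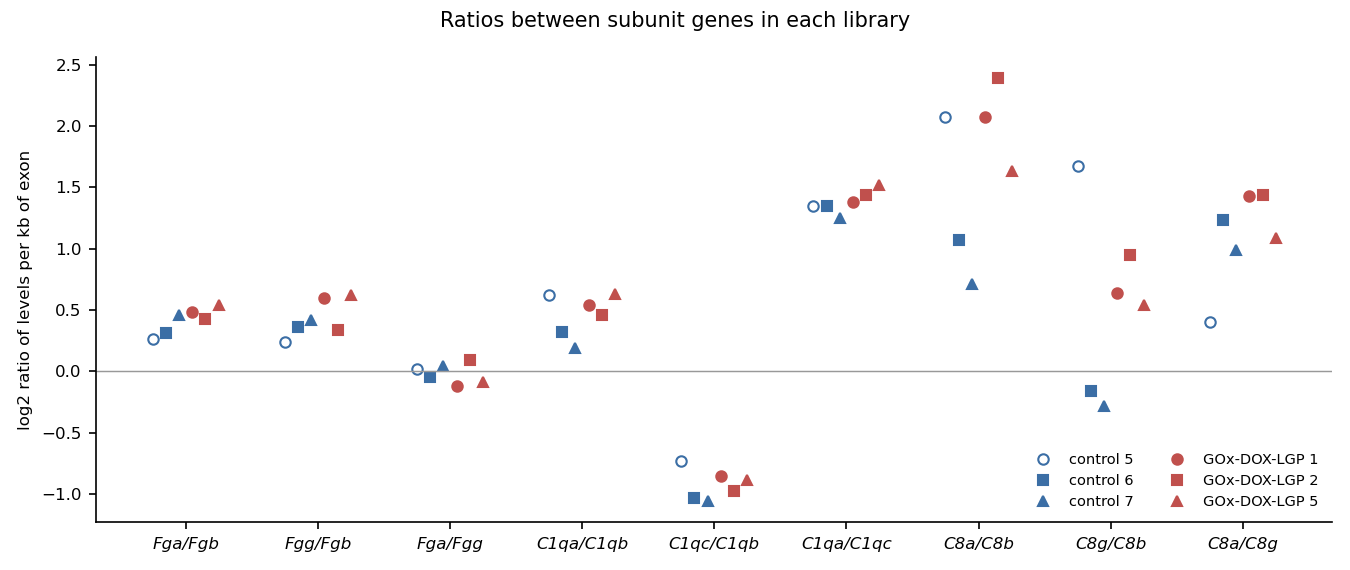
Log2 ratio of levels per kilobase of exon between genes whose products join in 1 complex, in each library; blue symbols are controls (control 5 open) and red symbols are GOx-DOX-LGP tumors. The fibrinogen and C1q ratios stayed within narrow bands in all 6 libraries, Fga to Fgg between -0.12 and 0.09, while C8a to C8b ran from 0.71 to 2.39.

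To see which hepatocyte-made genes moved unlike hepatocyte RNA in general, each log2 level was taken relative to the mean of the 12 hepatocyte markers in the same library, a ratio on which library scaling has no effect. The median difference between treated and control tumors then became 0.19, with a range from -0.52 (C8b) to 1.59 (F5), and it was 0.34 without control 5. For C8b the relative level was -3.89, -3.02 and -3.09 in the controls and -3.92, -3.91 and -3.71 in the treated tumors, so control 5 lay with the treated tumors. Fgg was at 0.92, 0.84 and 0.30 against 1.03, 1.32 and 1.14, and Fgg, Cpb2 and C4bp were the 3 of the 31 whose groups did not overlap, all higher in treated tumors by 0.26 to 0.75 (exact permutation p = 0.1 each, two-sided, the smallest possible), and by 0.31 to 0.87 without control 5. Of all genes tested, 0.124% were higher without overlap on this scale, but most genes do not follow hepatocyte markers, and nothing is read from the count. With Alb alone as the reference, Fga, Fgg and C4bp were higher and Serpind1 lower without overlap, and Cpb2 overlapped. With a prior count of 0.5, 2 were higher.

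A few hepatocyte-made genes did not track the markers. Relative to them F5 was at 3.26, -2.67 and -2.89 in the controls and at 0.22, 1.46 and 0.79 in the treated tumors, a span of 6.14. The spans of F7, Masp1, F11, F10 and C6 were 4.11, 4.04, 3.42, 2.82 and 2.14, against 0.49 for F13b and 0.51 for F2. For each of these 6 genes the relative level was lowest in controls 6 and 7, the libraries with the most hepatocyte RNA, and for all but F7 it was highest in control 5. In control 5 the levels of F5 and Masp1 were thus less reduced than those of the markers. Which cells made them was not measured.

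**Figure D4:**
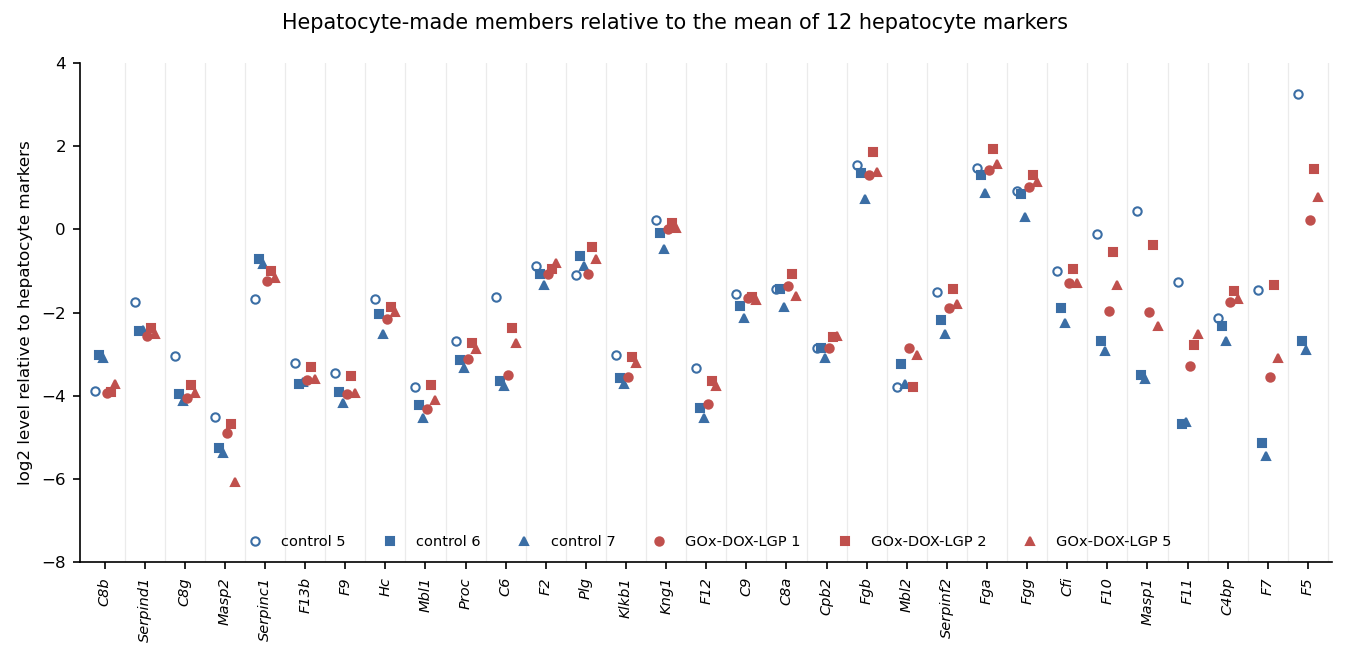
Log2 level of the 31 hepatocyte-made members relative to the mean of 12 hepatocyte markers in each library, ordered by the difference between groups; blue symbols are controls (control 5 open) and red symbols are GOx-DOX-LGP tumors. Most genes lay within a narrow band in all libraries, as F2 with a span of 0.51, while F5 spanned 6.14 with control 5 highest.

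Genes made by several cell types gave a mixed picture. Their median log2 fold change was -1.20, with 9 of 11 below 0. In 8 of 11, controls 6 and 7 were above the other 4 libraries, and the share of all genes with this order was not counted. DESeq2 called 1 of the 11 lower, close to the 9.85% of all genes. The edgeR test without control 5 called 6 lower, beside 25.5% of all genes. C3, on which all complement pathways converge, was at 194.5, 9171 and 10870 CPM in the controls and at 415, 1825 and 436 CPM in the treated tumors, a log2 fold change of -2.92 (SE 1.45, adjusted p = 0.344 in edgeR; -3.46 and 0.00704 without control 5). Treated tumor 2 had far more C3 than the other treated tumors, while its hepatocyte markers were the lowest of the 3. C4b (C4) was at 43.9, 442 and 363 CPM against 60.4, 99.5 and 91.8 CPM, with a log2 fold change of -1.75 (-2.23 without control 5), and shares 34.6% of its stretches with its copy C4a. C2, which joins C4 in the C3 convertase, was at 13.8, 45.2 and 55.6 CPM against 26.0, 22.3 and 30.2 CPM, and was called lower without control 5 (log2 fold change -0.91, adjusted p = 0.0093 in edgeR). Of the stretches of C2, 41.5% also occur elsewhere, among them in the overlapping genes Gm20547 and Zbtb12, so its level is uncertain.

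The proteases of C1 had the same order of libraries as C3, with smaller log2 fold changes. C1s1 was at 50.2, 545 and 665 CPM in the controls and at 103, 425 and 151 CPM in the treated tumors, and C1ra at 33.7, 331 and 429 CPM against 55.5, 222 and 67.9 CPM. Without control 5 the log2 fold change of C1s1 was -1.39 (adjusted p = 0.0769 in edgeR) and that of C1ra -1.69 (adjusted p = 0.0449 in edgeR), against -0.89 and -1.20 with all libraries. In both, treated tumor 2 lay between the other treated tumors and control 6. C1ra shares 50.8% of its stretches with C1rb, and C1s1 35.1% with C1s2, so their own levels are uncertain, though both copies also had their highest treated level in tumor 2 (27.1 CPM for C1rb and 18.5 CPM for C1s2). Serping1 (C1 inhibitor), which stops C1r and C1s, was at 87.1, 1029 and 1129 CPM against 113, 163 and 72.5 CPM. It was the gene of this group that DESeq2 called lower (log2 fold change -2.66, adjusted p = 0.0301), and edgeR gave an adjusted p of 0.247, or 0.000482 without control 5. Cfb (factor B) was at most 2.71 CPM in any library, with 73% of its stretches also in Gm20547, a readthrough gene that spans C2 and Cfb and had 0 counts in all libraries, so the value of Cfb depends on how reads in both genes were counted.

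The other 4 genes of several sources showed no common direction. Tfpi, the inhibitor of tissue factor, was at 15.2, 20.3 and 19.5 CPM in the controls and at 14.9, 22.4 and 12.96 CPM in the treated tumors, a log2 fold change of -0.13 (SE 0.29, adjusted p = 0.801 in edgeR). Pros1 (protein S) was at 33.0, 119 and 140.2 CPM against 33.5, 50.7 and 22.2 CPM, with a log2 fold change of -1.46 (adjusted p = 0.282 in edgeR; -1.84 and 0.00367 without control 5). Cfp (properdin), a leukocyte product that stabilizes the C3 convertase, was at 30.1, 43.3 and 31.8 CPM against 41.9, 80.2 and 55.9 CPM, with a log2 fold change of 0.76 (adjusted p = 0.277 in edgeR) and groups that overlapped. Plau (urokinase), a plasminogen activator of macrophages and tumor cells, was at 29.5, 46.6 and 13.8 CPM in the controls and at 47.5, 113 and 50.7 CPM in the treated tumors. Its groups did not overlap, although control 6 came close to treated tumor 1, and its log2 fold change was 1.23 (SE 0.55, adjusted p = 0.311 in edgeR; 1.24 and 0.116 without control 5). Of the 16 genes that were myeloid or of several sources, 15 were highest among treated tumors in tumor 2, the exception being C2, whereas 29 of 31 hepatocyte-made genes were highest in tumor 1. The shares of all genes highest in each tumor were not counted, and nothing is read from these counts.

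The myeloid genes pointed the other way. All 5 had a positive log2 fold change, between 0.95 and 1.61 with a median of 1.08. None passed the adjusted test with all libraries. Without control 5 all 5 were called higher, beside 22.2% of all genes, and their median was 1.43. The 3 C1q genes, which encode the chains of the recognition subunit, lie next to each other on chromosome 4. C1qa was at 218, 160 and 87.6 CPM in the controls and at 206, 436 and 338 CPM in the treated tumors, a log2 fold change of 1.08 (SE 0.45, adjusted p = 0.293 in edgeR; 1.43 and 0.0234 without control 5). C1qb was at 148, 134 and 80.1 CPM against 149, 333 and 228 CPM, and its groups were separated only by the small gap between control 5 and tumor 1. C1qc was at 158, 117 and 68.2 CPM against 147, 299 and 219 CPM. The chains kept their proportions here too, with a per-kilobase log2 ratio of C1qa to C1qc between 1.25 and 1.52.

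C5ar1, the C5a receptor of neutrophils and macrophages, was at 7.99, 6.70 and 3.87 CPM in the controls and at 13.9, 27.3 and 15.7 CPM in the treated tumors, so that every treated tumor exceeded every control. Its log2 fold change was 1.61 (SE 0.41, unadjusted p = 0.00722, adjusted p = 0.247 in edgeR), and DESeq2 called it higher (adjusted p = 0.00929), as did edgeR without control 5 (1.86, adjusted p = 0.00887). C3ar1, the C3a receptor, was at 50.5, 35.5 and 24.8 CPM against 51.3, 143 and 49.6 CPM, and its higher mean in treated tumors rested on tumor 2, without which its log2 fold change was 0.46. The log2 fold changes of C5ar1 and of Hc, the source of its ligand, thus had opposite signs, as had those of C3ar1 and C3.

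Of the 10 macrophage markers 9 had a positive log2 fold change, as had the myeloid genes, and the median of the 10 was 1.01 (1.35 without control 5). Their mean log2 level was 5.98, 5.70 and 5.13 in the controls and 5.84, 6.99 and 6.40 in the treated tumors, so the groups overlapped. The exception was Mertk, at 42.95, 42.66 and 47.24 CPM against 29.26, 31.45 and 31.74 CPM, lower without overlap (log2 fold change -0.52). Adgre1, which encodes the macrophage antigen F4/80, was at 40.5, 44.0 and 29.0 CPM against 27.8, 106.5 and 50.8 CPM. Relative to these markers C1qa, C1qc and C3ar1 overlapped between groups, with differences of 0.30, 0.17 and 0.20. C1qb was higher by 0.13 and C5ar1 by 0.79 without overlap (exact permutation p = 0.1 each, two-sided), as were 0.501% of all genes on this scale. Without control 5 these differences were 0.12 and 0.81. For C5ar1 the relative log2 level was -2.96, -2.93 and -3.13 in the controls and -2.03, -2.21 and -2.43 in the treated tumors. C5ar1 is also a neutrophil gene, and 7 neutrophil markers, 5 of them kept in the test, had a mean log2 level of 0.53, 0.27 and -0.74 in the controls and 0.76, 0.76 and 2.07 in the treated tumors. The part of macrophage or neutrophil content in the result was not tested. Of the 6 Kupffer cell markers 4 had a negative and 2 (Marco and Folr2) a positive log2 fold change, with a median of -1.72 (-2.15 without control 5) and a mean log2 level of 1.45, 4.59 and 4.32 in the controls against 2.61, 2.39 and 2.49.

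**Figure D5:**
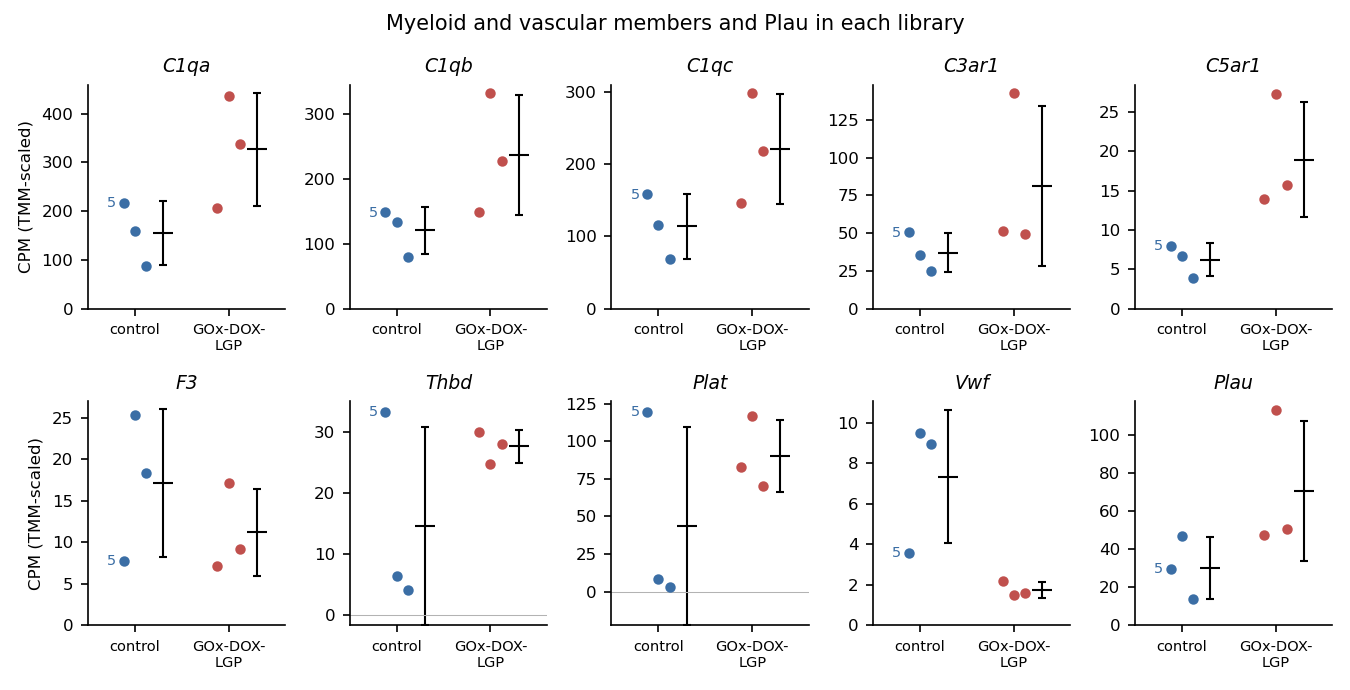
Level in TMM-scaled CPM of the 5 myeloid members, the 4 vascular members and Plau in each library; points are libraries (control 5 is marked with its number) and the bar beside each group is the mean and SD of 3 libraries. Every treated tumor exceeded every control for C1qb, C5ar1 and Plau, Vwf was lower in every treated tumor, and control 5 lay with the treated tumors for Thbd and Plat.

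The vascular genes split. Vwf, the adhesive protein that binds platelets to the vessel wall, was at 3.55, 9.50 and 8.93 CPM in the controls and at 2.18, 1.47 and 1.56 CPM in the treated tumors, without overlap. Its log2 fold change was -2.07 (SE 0.47, unadjusted p = 0.00429, adjusted p = 0.247 in edgeR), DESeq2 gave an adjusted p of 0.0032, and without control 5 the change was -2.37 (adjusted p = 0.00111 in edgeR). Thbd (thrombomodulin), which turns thrombin into an activator of protein C, was at 33.4, 6.45 and 4.09 CPM in the controls and at 30.1, 24.8 and 28.2 CPM in the treated tumors. Plat (tissue plasminogen activator) was at 120, 8.06 and 3.12 CPM against 82.9, 117 and 70.5 CPM. In Thbd and Plat control 5 exceeded every treated tumor, and the log2 fold changes were 0.91 (adjusted p = 0.526 in edgeR) and 1.04 (adjusted p = 0.635 in edgeR) with all libraries, but 2.42 (adjusted p = 0.000477) and 4.02 (adjusted p = 0.000468) without control 5. F3 (tissue factor), the trigger of clotting, was at 7.72, 25.4 and 18.3 CPM against 7.17, 17.2 and 9.21 CPM, a log2 fold change of -0.61 (SE 0.53, adjusted p = 0.534 in edgeR). Of the 4, only Vwf had groups that did not overlap.

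Of the 10 endothelial markers 9 had a negative log2 fold change, and the median of the 10 was -1.10 (-1.35 without control 5). At an unadjusted p under 0.05 in edgeR 6 were lower, where 14.6% of all genes were lower, and 0 passed the adjusted test. The mean log2 level of the 10 was 3.77, 4.74 and 4.91 in the controls against 3.64, 3.52 and 3.32. Pecam1 (CD31) was at 38.5, 44.1 and 42.3 CPM against 35.6, 33.7 and 33.8 CPM. Relative to these markers Vwf was still lower, at -1.89, -1.47 and -1.73 in the controls and -2.44, -2.85 and -2.58 in the treated tumors, a difference of -0.93 without overlap (exact permutation p = 0.1, two-sided), as were 0.748% of all genes on this scale, and -1.02 without control 5. Relative to the 6 markers of sinusoidal endothelium, the lining of liver vessels, Vwf overlapped between groups, with a difference of -0.44 (0.06 without control 5). Thbd and Plat did not track the endothelial markers. Relative to that list Thbd was at 1.3, -2.02 and -2.84 in the controls and 1.28, 1.12 and 1.5 in the treated tumors. Plat was at 3.14, -1.71 and -3.22 in the controls and 2.74, 3.36 and 2.82 in the treated tumors. Which cells made Thbd and Plat was not measured.

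Other genes of both pathways that are not members were examined in the same fit. Of 33 other coagulation genes 30 were tested, with a median log2 fold change of 0.25. None passed the adjusted test. At an unadjusted p under 0.05 in edgeR, 12 were lower and 1 higher, where 14.6% of all genes were lower and 2.87% higher. DESeq2 called 10 lower and 0 higher, beside 9.85% and 0.684% of all genes. Without control 5 the edgeR test called 13 lower and 11 higher, beside 25.5% and 22.2% of all genes. Groups did not overlap for 2 that were lower and 3 that were higher, close to the 8.31% and 8.87% of all genes. The group without overlap held F8 (factor VIII, made by liver endothelium), at 2.55, 24.6 and 28.2 CPM in the controls and 1.63, 1.08 and 1.56 CPM in the treated tumors, with a log2 fold change of -3.69 (adjusted p = 0.247 in edgeR, 0.000983 in DESeq2). It also held Lman1, a cargo receptor for factors V and VIII, with a log2 fold change of -0.50. Anxa2 and S100a10, which together bind plasminogen on the cell surface, and Anxa5, which covers exposed phosphatidylserine, were higher without overlap, with log2 fold changes of 1.58, 1.00 and 0.87. Anxa2 was at 1456, 303 and 89.4 CPM in the controls and at 1806, 1738 and 1965 CPM in the treated tumors. Without control 5 the log2 fold changes of Anxa2, S100a10 and Anxa5 were 3.26, 1.39 and 1.41, and those of F8 and Lman1 -4.17 and -0.54.

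Of 32 other complement genes 25 were tested, with a median log2 fold change of -1.47. At an unadjusted p under 0.05 in edgeR, 11 were lower and 2 higher, where 14.6% of all genes were lower and 2.87% higher. DESeq2 called 10 lower and 1 higher, beside 9.85% and 0.684% of all genes, whereas the adjusted edgeR test called 0. Without control 5 the edgeR test called 14 lower and 3 higher, beside 25.5% and 22.2% of all genes. Groups did not overlap for 2 that were lower and 2 that were higher, close to the 8.31% and 8.87% of all genes. The lower ones were Colec11, a collectin of the lectin pathway, and Cd46, a membrane regulator (log2 fold changes of -3.29 and -0.71). The higher ones were Itgam and Itgb2, the chains of complement receptor 3 (2.11 and 1.02). Itgam was at 11.4, 13.6 and 5.81 CPM in the controls and at 21.7, 66.3 and 45.0 CPM in the treated tumors. DESeq2 called it higher, as did edgeR without control 5 (log2 fold change 2.21, adjusted p = 0.0147).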

How the data were processed

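Tumor RNA of 3 control and 3 GOx-DOX-LGP mice was sequenced, and groups and numbers were taken from the sample labels. The authors deposited raw counts per gene, without normalization or pooling. The signal values they deposited beside these are counts scaled by 1 constant per library, and were used here for gene symbols and to check that relation. The methods of the study name TopHat and HTSeq, whereas the submitters' processing notes name Trimmomatic 0.38, HISAT2 2.1.0 and featureCounts 2.0.0, and which of these made the counts is unresolved. How reads shared by overlapping genes or by gene copies were counted, and whether strand was used, is not given in the sources used here.

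Counts were analysed in R 4.3.3 with edgeR 4.0.16 (filterByExpr at its defaults, TMM, quasi-likelihood test over all 6 libraries, Benjamini-Hochberg over all 15374 genes tested, threshold 0.05). Alternatives were DESeq2 1.42.0, the edgeR exact test, voom with sample quality weights in limma 3.58.1, 4 other scalings, 2 other filters, the hepatocyte markers as a covariate, and leaving out each library. Relative levels were tested by two-sided exact permutation. Library totals were 15529940 to 18401178 counts, and 3 counts corresponded to 0.132 to 0.323 CPM. Scripts were tested on simulated data. Gene identifiers matched GENCODE M21 (GRCm38), and sequences shared with other genes were counted as 50-base stretches of its transcripts. The number of unused per-sample columns was 0.

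The members, gene lists and source classes were chosen with earlier results of these data known. Values in every library were given for 11 hepatocyte-made genes fixed by name, for the largest and the smallest change among hepatocyte-made genes, for every other member by class, and for members with an unadjusted p under 0.05 and no overlap. Of the other pathway genes, up to 5 without overlap and with the largest change were named in each list.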

Additional observations from a re-analysis of the deposited data

How the results depend on the processing

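Calls depended on the test and on control 5. Of all genes, 0 were called by the edgeR quasi-likelihood test, 1739 by DESeq2, 1098 by the edgeR exact test and 9254 by limma voom with sample quality weights, and of the members 0, 34, 33 and 44. Leaving out 1 library at a time gave 0 to 7745 genes and 0 to 45 members, and every leave-one-out fit other than that without control 5 gave 0. The other scalings and filters and the hepatocyte covariate also gave 0. Leaving out 1 library moved the median log2 fold change of hepatocyte-made genes between -6.00 and -4.81, of genes of several sources between -1.78 and -0.67, of myeloid genes between 0.69 and 1.43, and of vascular genes between -0.114 and 0.74.

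With the mean of the hepatocyte markers as a covariate, the median log2 fold change became -0.139 for hepatocyte-made genes and 0.514 for genes of several sources, and the sign turned for Fga (0.203), Fgb (0.002), Fgg (0.254), Serpinc1 (0.304), Plg (0.247), Mbl2 (0.636), F3 (0.12), Tfpi (0.015), C1ra (1), C1s1 (1.38), C2 (0.514), C4b (0.198) and C3 (1.036). Scaling to library totals, which moved the median of all genes to 0.506, turned F3 (0.068), Tfpi (0.444) and C2 (0.219), and upper quartile scaling turned Tfpi (0.057). Leaving out libraries moved Tfpi between -0.375 and 0.074. The cause was not tested. Of 527 values of named members under the alternatives, 509 kept their direction. No paired analysis was possible because the groups share only the number 5. With 3 libraries a group, 1 of which stands apart, the size of a change depends on control 5.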
